A study of Homo sapiens with 8 samples.

Results

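The exons of 9 serine/arginine-rich (SR) splicing factor genes, SRSF1, SRSF2, SRSF3, SRSF4, SRSF5, SRSF6, SRSF7, SRSF10 and SRSF11, were followed in 2 human breast epithelial cell lines given emetine or its solvent. Every skipped-exon event that the deposited tables assign to one of these gene symbols was taken. There were 44 such events over 33 exons among the 82355 events of MCF10A, and 49 over 39 exons among the 98244 of HMLE TWIST. The 2 tables together held 57 different events over 42 exons of these genes, of 123924 different events in all, and 36 of the 57 were in both.

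An event is an exon between 2 fixed neighbours, and reads across exon junctions support either its inclusion or its skipping. MCF10A is a non-tumorigenic breast epithelial line. HMLE TWIST cells are immortalised breast epithelial cells in which a pBabe retrovirus has integrated to overexpress the transcription factor TWIST. The 4 groups were MCF10A in DMSO, MCF10A in 10 µM emetine, HMLE TWIST in DMSO and HMLE TWIST in 10 µM emetine, all collected after 24 hours, with 2 biological replicates each. No HMLE cells without TWIST were analysed here, so the line and the transgene cannot be told apart. The series concerns compounds that act on alternative splicing through RNA G-quadruplexes, and each line's emetine samples were compared with its own DMSO samples.

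SR proteins bind exonic enhancers through an RNA recognition motif and recruit the spliceosome through a domain rich in arginine and serine dipeptides. Most of their genes carry a poison exon, a highly conserved cassette whose inclusion brings a premature stop codon and sends the transcript to nonsense-mediated decay, and several SR proteins promote inclusion of their own poison exon. Decay of this kind depends on translation, and emetine is an alkaloid that blocks translation elongation.

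All 42 exons were matched by length to exons of their gene in GENCODE 29. In each gene the poison candidates were placed into the annotated coding transcripts that skip them, and the reading frame was followed to its first stop. An in-frame stop codon fell inside 12 tested exons, of SRSF3, SRSF4, SRSF6, SRSF7 and SRSF11. It began between base 14 and base 150 of the exon and ended 59 to 1006 nt before the last exon junction. Of the 12 exons, 7 had a length divisible by 3, and in all 12 the stop codon inside the exon ended the reading frame. The stretches below belong to the 8 of these exons whose inclusion rose in at least 1 line, and run from the exon's 5′ end to its stop codon, which is in capitals. They were read from GENCODE 29 transcripts (GRCh38 reference). Each stop is that of the exon placed alone, and the 276-nt and 449-nt forms of SRSF7 share reads. In the reads the SRSF4 175-nt exon was almost never joined directly to the first exon, so its marked stop holds for that placement only. The positions are those of the deposited tables, on GRCh37.
SRSF3 456-nt exon, chr6:36567598-36568053, plus strand: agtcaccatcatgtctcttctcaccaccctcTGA
SRSF4 195-nt exon, chr1:29486376-29486570, minus strand: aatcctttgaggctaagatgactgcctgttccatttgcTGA
SRSF4 175-nt exon, chr1:29492402-29492576, minus strand: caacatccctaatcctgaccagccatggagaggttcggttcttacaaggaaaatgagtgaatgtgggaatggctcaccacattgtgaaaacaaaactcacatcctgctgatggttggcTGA
SRSF6 268-nt exon, chr20:42087793-42088060, plus strand: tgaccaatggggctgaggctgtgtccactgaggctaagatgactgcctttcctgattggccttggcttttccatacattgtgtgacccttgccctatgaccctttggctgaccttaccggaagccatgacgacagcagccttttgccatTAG
SRSF7 449-nt exon, chr2:38976040-38976488, minus strand: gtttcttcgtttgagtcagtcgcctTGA
SRSF7 276-nt exon, chr2:38976040-38976315, minus strand: ggcagaaaatttgagacggTGA
SRSF11 109-nt exon, chr1:70696778-70696886, plus strand: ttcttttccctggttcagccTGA
SRSF11 117-nt exon, chr1:70697542-70697658, plus strand: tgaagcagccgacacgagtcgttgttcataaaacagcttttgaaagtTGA

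The exons of SRSF4 and SRSF6 hold an identical run of 20 nt, at bases 8 to 27 of the former and 29 to 48 of the latter.
Run shared by the SRSF4 195-nt and SRSF6 268-nt exons: tgaggctaagatgactgcct
Among 16 exons whose exact form is in no annotated coding sequence, the SRSF1 203-nt form included, 104 pairs from different genes were compared. Their longest identical run had a median of 7 nt. The next run in a pair without this SRSF4 region was 15 nt, between the 98-nt exon of SRSF3 and the 69-nt exon of SRSF7, which were both almost unused in every library. The overlapping 228-nt form of the SRSF4 exon holds the 20-nt run as well.

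**Figure D1:**
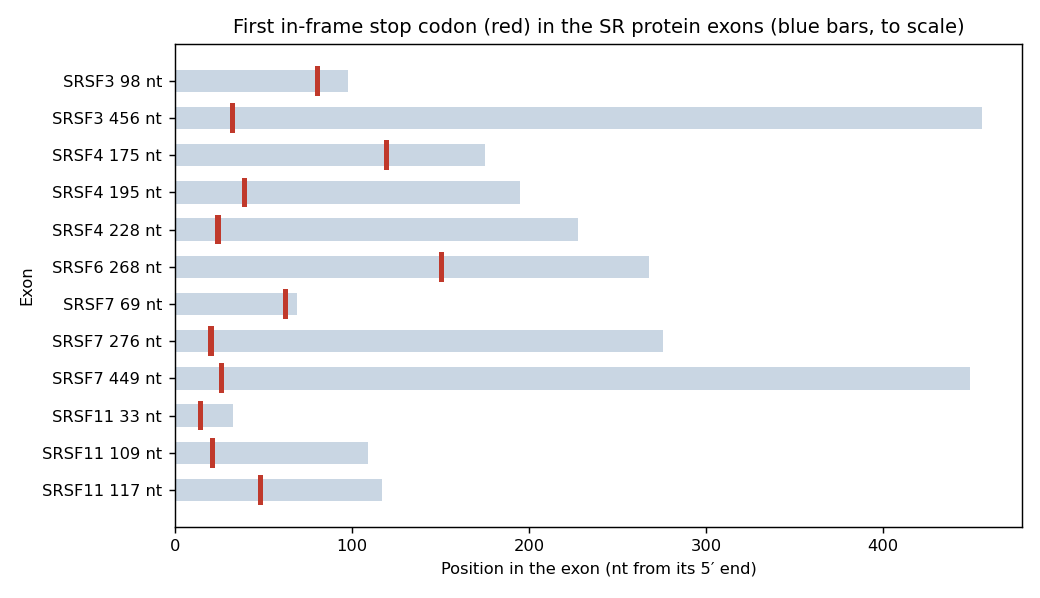
The horizontal axis is the position in the exon in nt from its 5′ end, and each blue bar is an exon drawn to scale, with the first in-frame stop codon in red. In 8 of the 12 exons the stop codon starts within the first 50 nt, and in SRSF3 98 nt and SRSF7 69 nt it lies towards the end.

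Summed over all events, a library held 78412292 to 91259363 junction reads, and a read can count in several events. The median event had 202 to 234 reads in the DMSO libraries and 274 to 308 in the emetine libraries. The inclusion level is the length-corrected share of reads that include the exon, from 0 to 1, and a change is the emetine mean minus the DMSO mean. An event was tested where every library had at least 20 reads and the rarer form had at least 10 in all. It is called changed where the adjusted p of a quasi-binomial model over all events was under 0.05 and the change was at least 0.1 in size.

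In MCF10A, 26 SR protein events over 23 exons of all 9 genes could be tested, and 12 changed, 9 towards inclusion and 3 towards skipping. The 12 events belonged to 11 exons of 7 genes. Over all tested events of MCF10A, 13.8% changed, 8.37% towards inclusion and 5.48% towards skipping. Of the 26, 20 had an adjusted p under 0.05 with the quasi-binomial model, beside 36.5% of all tested events, and in 22 the DMSO and emetine libraries did not overlap, beside 67.4%. In HMLE TWIST, 26 events over 24 exons of 8 genes could be tested, and 9 changed, 6 towards inclusion and 3 towards skipping, on 9 exons of 6 genes. Over all tested events of HMLE TWIST, 15.0% changed, 6.66% towards inclusion and 8.32% towards skipping. There, 16 of the 26 had an adjusted p under 0.05, beside 39.8% of all tested events, and 20 did not overlap, beside 69.9%.

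The median change of the tested SR protein events was 0.0131 in MCF10A and 0.00567 in HMLE TWIST, beside -0.000168 and -0.00315 over all tested events. The median size of the change, whatever its direction, was 0.0951 and 0.0669, beside 0.0239 and 0.0255. Without the correction for junction length the direction of the SR protein calls was 11 towards inclusion and 0 towards skipping in MCF10A, and 8 and 0 in HMLE TWIST, since the falls then stayed under 0.1. With limma, 11 of the 12 and 7 of the 9 remained called.

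Tested events were split by whether the exact exon form lies in the coding sequence of an annotated protein-coding transcript. Where it does not, 9 of 20 rose and 2 fell in MCF10A, and 6 of 19 rose and 1 fell in HMLE TWIST. These falls include, in both lines, the 203-nt form of SRSF1, which holds the whole 187-nt coding form. Of those inside coding sequence, 0 of 6 rose and 1 fell in MCF10A, and 0 of 7 rose and 2 fell in HMLE TWIST. Of the 12 exons with an in-frame stop codon, all 12 were tested in MCF10A, where 7 rose, and 11 in HMLE TWIST, where 5 rose. None of them fell in either line when read between coding exons. The 7 that rose in MCF10A include the SRSF4 175-nt exon, whose stop holds only for the exon placed alone. The 5 that rose in HMLE TWIST include the 276-nt form of an SRSF7 exon, which shares reads with its 449-nt form. More splicing into an exon and slower loss of the transcripts that hold it cannot be told apart in these reads.

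**Figure D2:**
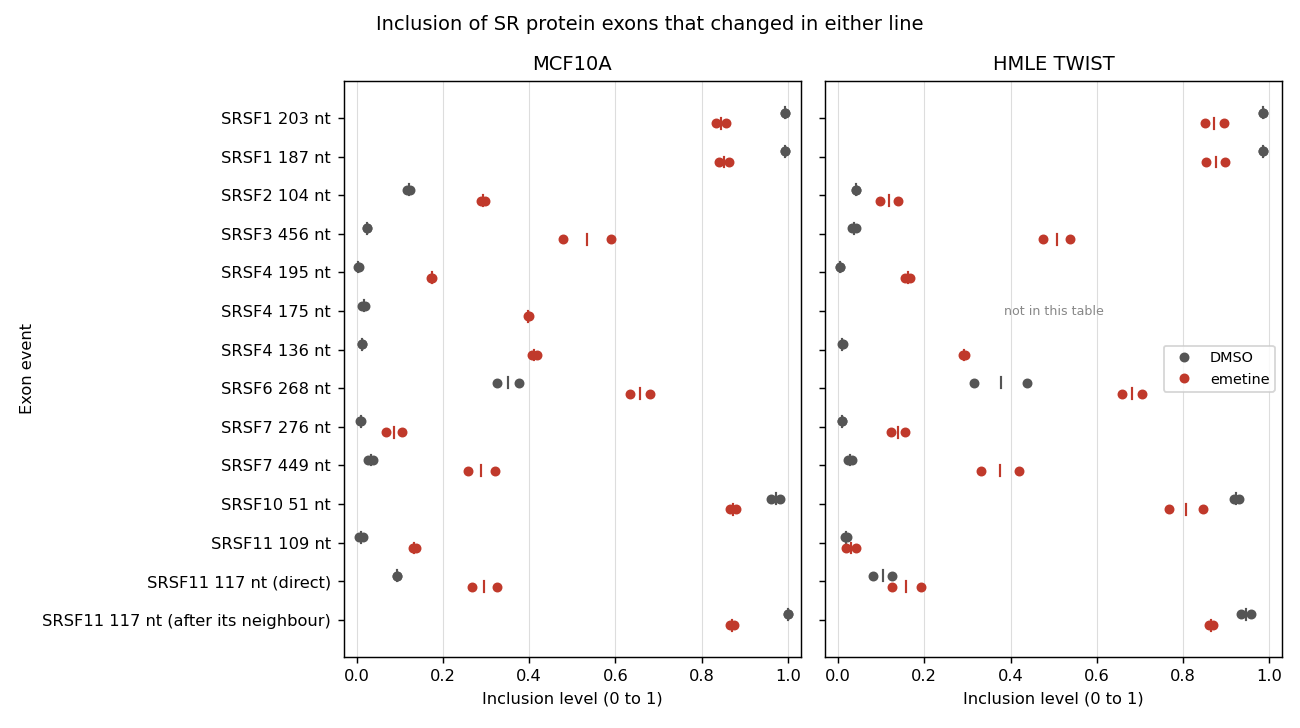
The horizontal axis is the inclusion level from 0 to 1, for the 14 events that changed in at least 1 line, with 2 DMSO libraries (grey) and 2 emetine libraries (red) per event and a vertical tick at the mean. SRSF11 117 nt is shown both read between the coding exons and read after its neighbour, the 109-nt exon, and the SRSF4 175-nt event was listed for MCF10A alone. Poison exons of SRSF3, SRSF4, SRSF6 and SRSF7 move right under emetine in both lines, and the SRSF1 and SRSF10 exons move left.

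SRSF3 is a small SR protein that also couples splicing to mRNA export, and its 456-nt poison exon had the largest change among the tested SR protein events in both lines. In MCF10A the exon was included at 0.0232 and 0.0238 in DMSO and at 0.589 and 0.478 in emetine. In HMLE TWIST the levels were 0.0329 and 0.0413 in DMSO and 0.538 and 0.475 in emetine. All 4 emetine libraries stood far above the 4 DMSO libraries. The changes of 0.51 and 0.469 had adjusted p-values too small to be represented with the quasi-binomial model and of 0.0145 and 0.0113 with limma. Reads of the inclusion form, per 1000000 junction reads summed over the library's events (RPM), went from 2.03 and 2.06 to 96.3 and 79.2 RPM in MCF10A, 42.9-fold, and rose 25.6-fold in HMLE TWIST. Reads of the skipping form, which is annotated as coding, stood at 0.905 times their DMSO value in MCF10A and at 0.945 times in HMLE TWIST. The 98-nt exon of SRSF3, which also holds a stop codon, did not exceed 0.0035 in any library.

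SRSF7, a relative of SRSF3 and a zinc-knuckle SR protein, has a 449-nt poison exon with an alternative 276-nt form that ends at the same splice site. The 449-nt form was included at 0.0271 and 0.0386 in DMSO and at 0.321 and 0.258 in emetine in MCF10A. In HMLE TWIST it was included at 0.0233 and 0.0323 in DMSO and at 0.419 and 0.331 in emetine. The groups did not overlap in either line. Changes were 0.256 (adjusted p = 1.4e-259 with the quasi-binomial model, 0.016 with limma) and 0.347 (limma adjusted p = 0.0115). The 276-nt form was at 0.00886 and 0.0094 in DMSO and at 0.156 and 0.124 in emetine in HMLE TWIST, a change of 0.131. Its levels in MCF10A were 0.00814 and 0.0112 in DMSO and 0.104 and 0.068 in emetine, a value of 0.0765 under the size limit. This form was low in every DMSO library, with no overlap in either line. Both forms have the same skipping reads, and the inclusion reads of each also count the junction at their shared splice site. In HMLE TWIST emetine the 276-nt form had 1414 and 1177 inclusion reads, beside 5505 and 4117 for the 449-nt form. The rise therefore cannot be assigned to the 276-nt form alone. Inclusion reads of the 449-nt form rose 19.2-fold and 39.1-fold, and the skipping reads 1.59-fold and 1.81-fold. A 36-nt coding exon of SRSF7 differed by 0.0149 and 0.0245, and the 69-nt exon stayed at or below 0.00908.

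SRSF4 is one of the longest SR proteins, and 2 separate regions of its gene hold exons outside the coding sequence. The 195-nt exon was included at 0.00467 and 0.00449 in DMSO and at 0.173 and 0.176 in emetine in MCF10A. The HMLE TWIST levels were 0.00577 and 0.00506 in DMSO and 0.168 and 0.155 in emetine. Emetine libraries were thus high and alike in both lines, with changes of 0.17 (adjusted p = 1.0e-94, quasi-binomial model) and 0.156 (adjusted p = 5.1e-99). Its 228-nt form, which adds bases at the 5′ end, differed by 0.0904 and 0.0804, under the size limit. Both forms have the same skipping reads, and the inclusion reads of each also count the junction at their shared 3′ end. In emetine the 228-nt form had 158 and 166 inclusion reads in MCF10A, beside 333 and 331 for the 195-nt form. In HMLE TWIST emetine it had 220 and 154, beside 458 and 331. The values of the 228-nt form are thus not its own alone.

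The other SRSF4 region lies in the long first intron. A 136-nt exon there, read as skipped between the 143-nt coding exon and the first exon, was included at 0.0119 and 0.0138 in DMSO and at 0.418 and 0.406 in emetine in MCF10A. The levels in HMLE TWIST were 0.00837 and 0.013 in DMSO and 0.295 and 0.29 in emetine. No library of one group came near the other group. The changes were 0.399 (adjusted p = 1.2e-130, quasi-binomial model) and 0.282 (adjusted p = 1.6e-116). Placed alone into the coding transcripts, the 136-nt exon shifted the frame to a stop codon downstream of it, 450 to 540 nt before the last junction. The direct junction of the 136-nt and 143-nt exons had 4 and 0 reads in MCF10A emetine and 1 and 6 in HMLE TWIST emetine. The inclusion reads thus lie mostly on the junction to the first exon, and the frame of longer paths was not followed. Inclusion reads rose 23.0-fold in MCF10A and 21.0-fold in HMLE TWIST, and the reads that skip the region fell to 0.428 and 0.552 times their DMSO value.

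A 175-nt exon of the same SRSF4 region was listed against the same skipping junction in MCF10A, at 0.0194 and 0.0138 in DMSO and at 0.4 and 0.397 in emetine, a change of 0.382 (adjusted p = 2.1e-119, quasi-binomial model). It shares the skipping reads of the 136-nt exon, so both calls rest in part on the same reads. In MCF10A, the direct junction of the 175-nt and first exons had 1 and 0 reads in DMSO and 0 and 0 in emetine. The inclusion reads of the 175-nt exon thus lie on its junction to the 143-nt coding exon. Its frame after the other exons of the region was not followed. Between the 175-nt and 136-nt exons lies a 184-nt exon. In HMLE TWIST, reads that join the 184-nt exon to its neighbours went from 0.307 and 0.4 RPM in DMSO to 10.6 and 9.0 RPM in emetine. In MCF10A they went from 0.395 and 0.624 to 11.3 and 10.4 RPM. That event had too few skipping reads to test. Where the 184-nt exon was set between the coding exons, without the other 2, its level did not exceed 0.0161. A 138-nt form of the 184-nt exon uses the same splice site towards the 175-nt exon. The 175-nt exon, joined to that site and to a splice site that the 143-nt coding exon shares with a longer listed form of 1144 nt, was at 0.967 or more in every library. The 90-nt coding exon of SRSF4 differed by 0.0113 and -0.0152.

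SRSF6, a close relative of SRSF4, had the most used poison exon in DMSO among those read between coding exons. Its 268-nt exon was included at 0.325 and 0.377 in DMSO and at 0.68 and 0.634 in emetine in MCF10A. In HMLE TWIST the levels were 0.316 and 0.439 in DMSO and 0.704 and 0.657 in emetine. The lowest emetine library, at 0.634, was above the highest DMSO library, at 0.439, although the 2 DMSO libraries of HMLE TWIST lay apart. The change was 0.306 in MCF10A (adjusted p = 5.6e-27, quasi-binomial model, and 0.0448 with limma). It was 0.304 in HMLE TWIST (adjusted p = 1.9e-34, but 0.0532 with limma, which does not call it). Both forms gained reads, the inclusion form 9.65-fold and 10.0-fold and the skipping form 2.72-fold and 2.74-fold.

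SRSF2, which binds both C-rich and G-rich enhancers, differs from the genes above in that its 104-nt exon follows the stop codon of the coding transcript. Inclusion adds an exon junction after that stop. The level went from 0.125 and 0.117 in DMSO to 0.297 and 0.289 in emetine in MCF10A, a change of 0.172 (adjusted p = 4.8e-67, quasi-binomial model, but 0.0525 with limma, which does not call it). The level in HMLE TWIST went from 0.0424 and 0.042 to 0.138 and 0.097. The groups did not overlap there, and the value of 0.0756 was under the size limit. Inclusion reads rose 6.39-fold and 6.61-fold and skipping reads 2.13-fold and 2.21-fold.

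A second SRSF2 exon after the stop codon, of 98 nt, was included in nearly all reads and was not tested. Its inclusion reads went from 18.2 and 16.7 RPM to 67.0 and 67.1 RPM in MCF10A. In HMLE TWIST they went from 32.1 and 24.8 RPM to 102 and 112 RPM. Transcripts that hold this exon are annotated as decay targets or retained introns. Most of its inclusion reads cross the junction that skips the 104-nt exon, with 1295 and 1248 reads of 1430 and 1393 in MCF10A DMSO. Annotated protein-coding transcripts also use that junction, so the inclusion reads are not those of the decay form alone.

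**Figure D3:**
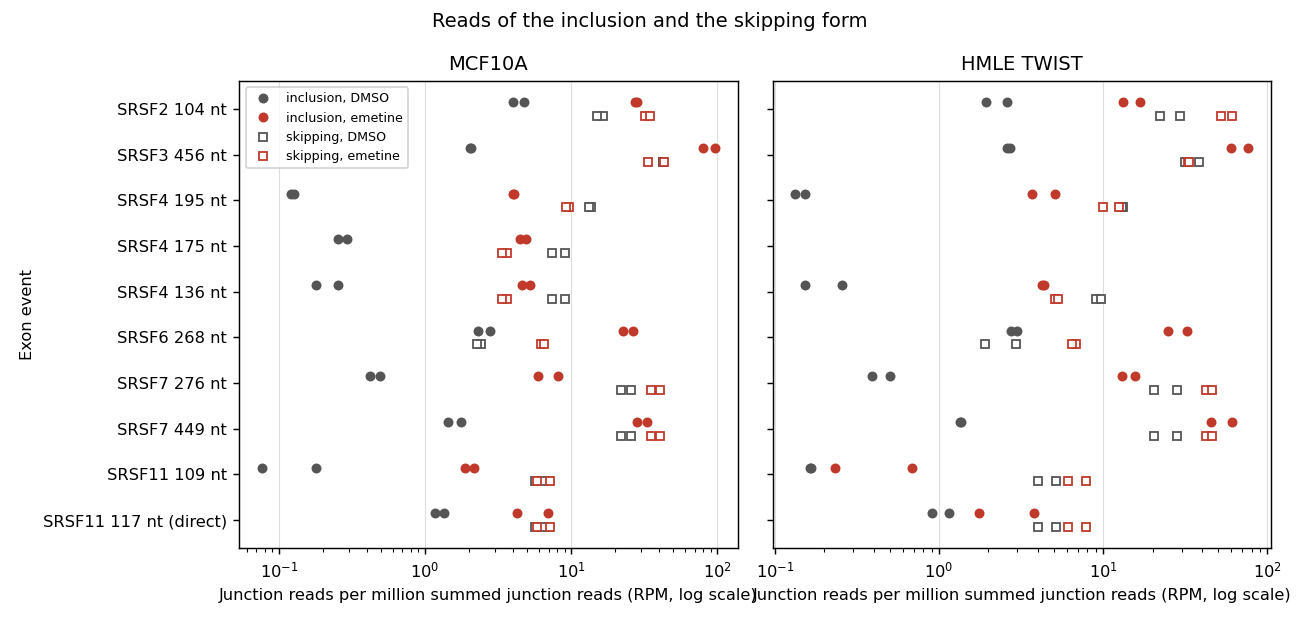
The horizontal axis gives junction reads in RPM on a log scale for the 10 events outside the coding sequence that changed towards inclusion in at least 1 line, with filled circles for the inclusion form, open squares for the skipping form, grey for DMSO and red for emetine (2 libraries each). In SRSF3 and SRSF4 the circles move right while the squares stay or move left, and in SRSF2, SRSF6 and SRSF7 both move right.

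SRSF11, an SR-like protein also known as p54, has neighbouring exons of 109 nt and 117 nt, each with an in-frame stop codon, that can be used alone or together. Between the coding exons, the inclusion reads of each exon also count a junction that the form with both exons uses. The 109-nt exon, read between the coding exons, was at 0.00586 and 0.0156 in DMSO and at 0.13 and 0.138 in emetine in MCF10A. It changed by 0.123 (adjusted p = 2.3e-29, quasi-binomial model). In HMLE TWIST its levels were 0.0158 and 0.0202 in DMSO and 0.0416 and 0.0185 in emetine, which overlapped, with a difference of 0.012 (adjusted p = 0.094, quasi-binomial model).

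The 117-nt exon of SRSF11, read between the coding exons, was at 0.0943 and 0.0932 in DMSO and at 0.326 and 0.267 in emetine in MCF10A, a change of 0.203 (adjusted p = 2.8e-32, quasi-binomial model). In HMLE TWIST it was at 0.0815 and 0.125 in DMSO and at 0.193 and 0.124 in emetine, which overlapped, with a value of 0.0553 under the size limit (adjusted p = 0.00014 with the quasi-binomial model, 0.36 with limma). After the 109-nt exon, the 117-nt exon was included at 1.0 in both MCF10A DMSO libraries and at 0.875 and 0.866 in emetine, a change of -0.129 (adjusted p = 0.0013, quasi-binomial model). In HMLE TWIST it was at 0.935 and 0.958 in DMSO and at 0.86 and 0.869 in emetine, a difference of -0.0822 that did not pass (adjusted p = 0.17, quasi-binomial model). Its skipping form there is the 109-nt exon joined to the coding exon, so this fall and the rise of the 109-nt exon rest on the same reads. Between the coding exon and the 117-nt exon, the 109-nt exon was at 0.48 and 0.475 in DMSO and at 0.395 and 0.486 in emetine in MCF10A. In HMLE TWIST it was at 0.485 and 0.333 in DMSO and at 0.254 and 0.246 in emetine, a difference of -0.159 that did not pass (adjusted p = 0.061, quasi-binomial model). The 33-nt exon of SRSF11 at 70712800, which also holds a stop codon, differed by 0.0513 and 0.0471, under the size limit and without overlap in both lines.

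SRSF1, the founding SR protein, had an exon whose inclusion level fell in both lines, although its inclusion reads rose. The exon, near the 3′ end of the gene, has a 187-nt form, held in a coding transcript, and a 203-nt form, held in a decay transcript. The 203-nt form was at 0.992 and 0.992 in DMSO and at 0.856 and 0.832 in emetine in MCF10A. In HMLE TWIST it was at 0.984 and 0.986 in DMSO and at 0.85 and 0.895 in emetine. Emetine libraries were below every DMSO library in both lines. The changes were -0.148 (adjusted p = 2.2e-32, quasi-binomial model) and -0.113 (adjusted p = 8.5e-20). The 187-nt form shares the skipping reads and the junction before the exon, so the falls of the 2 forms are not independent. The 187-nt form was at 0.992 and 0.993 in DMSO and at 0.864 and 0.84 in emetine in MCF10A, a change of -0.14. Its levels in HMLE TWIST were 0.985 and 0.986 in DMSO and 0.853 and 0.897 in emetine, a change of -0.11. The skipping form went from 5 and 5 reads to 195 and 245 in MCF10A, 42.8-fold in RPM, and rose 28.8-fold in HMLE TWIST, while inclusion reads rose 1.80-fold and 2.97-fold.

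No SRSF1 transcript of GENCODE 29 has this skipping junction. With the 187-nt exon taken out of its coding transcript, the frame shifted and ended after 196 codons instead of 253, beyond the last junction. The junction before the exon also serves an annotated coding transcript whose last exon starts there, so the inclusion reads are not those of the decay form alone. Without the first listed emetine library of HMLE TWIST, the changes of the SRSF1 forms were -0.0902 and -0.0878 and the calls in that line were lost.

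SRSF10, a splicing repressor when dephosphorylated, had an in-frame coding exon with 51-nt and 54-nt forms. The 51-nt form was at 0.961 and 0.982 in DMSO and at 0.864 and 0.879 in emetine in MCF10A. It was at 0.917 and 0.929 in DMSO and at 0.766 and 0.846 in emetine in HMLE TWIST. Emetine libraries were lower in both lines. The value in MCF10A was -0.0998, just short of the size limit. It passed that limit without the first listed DMSO library of MCF10A, at -0.111, or without the second listed emetine library, at -0.107. The change of -0.117 in HMLE TWIST passed it (adjusted p = 2.1e-05, quasi-binomial model, but 0.0848 with limma, which does not call it). Without the first listed emetine library the HMLE TWIST change was -0.0766 and the call was lost. Taking the exon out of a coding transcript kept the frame and shortened the protein from 182 to 165 codons. The 54-nt form differed by -0.052 and -0.0583, under the size limit. Both forms have the same skipping reads, and the inclusion reads of each also count the junction at their shared 3′ end. In HMLE TWIST the 51-nt form had 333 and 333 inclusion reads in DMSO and 676 and 522 in emetine. The 54-nt form had 708 and 647 in DMSO and 1520 and 1188 in emetine. The call of the 51-nt form thus does not rest on reads of that form alone.

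SRSF5, a short SR protein of the SRSF4 and SRSF6 group, had no changed event. Its 70-nt coding exon was at 1.0 in both MCF10A DMSO libraries and at 0.991 and 0.997 in emetine, a value of -0.0061. None of its events could be tested in HMLE TWIST, and every listed SRSF5 level in either line was at least 0.99. An SRSF5 exon that starts at 70236228 was listed only as a neighbour of the 70-nt exon. It has no inclusion level here, so its response was not measured.

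Between the lines, 7 events on 7 exons of 5 genes, SRSF1, SRSF3, SRSF4, SRSF6 and SRSF7, changed in both. All 7 had the same direction. They include the 187-nt and 203-nt forms of the SRSF1 exon, which have the same skipping reads and are not independent. The matching count over all events is not given here. The difference of the changes was tested with all 8 libraries for 28 events. With the quasi-binomial model, which tests differences of log odds, 4 had an adjusted p under 0.05, beside 3.22% of all events, and 2 also differed by 0.1 or more, beside 1.88%. Both were in SRSF11. The change of the 109-nt exon was 0.111 smaller in HMLE TWIST (adjusted p = 0.00015) and that of the 117-nt exon 0.147 smaller (adjusted p = 0.00015). Neither passed with limma, at adjusted p = 0.26 and 0.50, or with an event's own dispersion where larger, at adjusted p = 0.057 and 0.45. Of the 28, 6 events had an unadjusted p under 0.05 with the quasi-binomial model and 2 with limma. Without the second listed DMSO library of HMLE TWIST, the difference for the 117-nt exon was -0.125 with an adjusted p of 0.14. Without the second listed emetine library of that line, the difference for the 109-nt exon was -0.0998.

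The poison exons of SRSF7 and SRSF3 also differed in response with the quasi-binomial model, by 0.0909 (adjusted p = 0.00047) and -0.0404 (adjusted p = 1.1e-05), under the size limit. Neither difference passed with limma, at adjusted p = 0.68 and 0.65, or with an event's own dispersion, at adjusted p = 0.87 and 0.86. The SRSF7 difference passed the limit, at 0.135, without the second listed emetine library of HMLE TWIST, and at 0.122 without the first listed emetine library of MCF10A. For the SRSF4 136-nt exon the changes differed by -0.117 as levels, with an adjusted p of 0.75 on log odds. For SRSF6 the difference was -0.00207 (adjusted p = 0.97, quasi-binomial model).

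In DMSO, 3 of the 28 events differed between lines with an adjusted p under 0.05 (quasi-binomial model), beside 8.76% of all events, and 0 also differed by 0.1 or more, beside 3.64%. At an unadjusted p under 0.05 there were 9 with this model and 6 with limma, which called 0. The largest difference was that of the SRSF2 104-nt exon, at a mean of 0.121 in MCF10A and 0.0422 in HMLE TWIST.

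**Figure D4:**
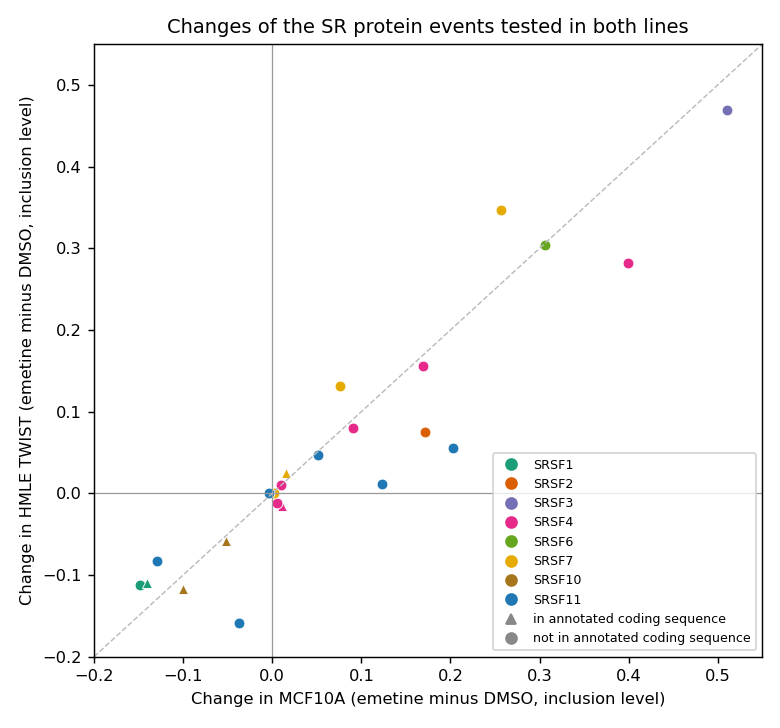
The horizontal axis is the change in MCF10A and the vertical axis the change in HMLE TWIST (emetine minus DMSO, inclusion level) for the 24 events tested in both lines, coloured by gene, with triangles for exons in annotated coding sequence, circles for the others and a dashed line of equal change. The SRSF1 203-nt form, which holds the 187-nt coding form, is a circle. SRSF3, SRSF4, SRSF6 and SRSF7 events reach above 0.25 in both lines, and the SRSF11 events at 0.123 and 0.203 in MCF10A lie below the line of equal change.

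Genes that act with the SR proteins were counted in the same fits. Among other SR family members, 1 event rose and 1 fell of 11 in MCF10A, and 1 and 1 of 12 in HMLE TWIST. The largest change there was in a 90-nt exon of TRA2A, a splicing activator, which went from 0.429 and 0.397 to 0.137 and 0.182 in MCF10A and changed by -0.254 and -0.28. Among SR-related proteins, 19 rose and 5 fell of 109 events in MCF10A, and 19 and 7 of 116 in HMLE TWIST, on 15 genes in each line. Events of CCNL2, a cyclin L that resides in nuclear speckles, changed most, in different exons of the gene. A 19-nt exon changed by -0.43 in MCF10A and a 279-nt exon by -0.428 in HMLE TWIST.

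Among the kinases and importers of SR proteins, 3 events rose and 2 fell of 36 in MCF10A, and 2 rose and 7 fell of 34 in HMLE TWIST. In MCF10A the largest change was in SRPK2, an SR protein kinase, at 0.197. In HMLE TWIST it was in CLK2, a nuclear kinase that phosphorylates SR proteins, at -0.6, from 0.949 and 0.989 to 0.419 and 0.319. Among nonsense-mediated decay factors, 4 rose and 3 fell of 31 in MCF10A, and 5 rose and 4 fell of 39 in HMLE TWIST. The largest changes were in SMG1, the kinase of the decay pathway, at 0.354 in MCF10A, and in UPF3A, an exon junction complex partner, at -0.353 in HMLE TWIST. From 13.9% to 26.5% of the events of a list changed, beside 13.8% of all events in MCF10A and 15.0% in HMLE TWIST.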

How the data were processed

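RNA of 8 libraries was measured as polyadenylated RNA-seq, stranded and paired-end, per the labels' protocols. Reads were aligned with STAR 2.5.3a to GRCh37, per the submitters' processing notes. The rMATS version and annotation release are not given in the sources used here. The authors' deposited tables hold, per event and group, inclusion and skipping read counts as pairs with no replicate number, with effective lengths. Their deposited p-value and false discovery rate were used as an alternative, and so was their difference score. Headers call the groups only sample 1 and sample 2, and the order in the table's name was used to read them as DMSO and emetine. The first listed count was used as replicate 1. The labels do not say how the 2 biological replicates were grown.

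Each event was fitted with a quasi-binomial model in R 4.3.3, with dispersions moderated by limma 3.58.1 (squeezeVar), which shared a single dispersion of 1.97 in MCF10A, 1.95 in HMLE TWIST and 1.84 over all 8 libraries. Adjusted p-values therefore rest on that shared spread. They are two-sided and Benjamini-Hochberg adjusted over all events. limma on log2 odds, with 0.5 added to each count, was the alternative test. The models were tested on simulated data. Other alternatives were read minimums of 10 and 50, no minimum of the rarer form, no length correction, a change of 0.2, an event's own dispersion, a replicate block and each library left out.

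Exons were matched to GENCODE 29 by the lengths of exon and introns, within the gene. No coordinates were converted. Exons are named by this rule: every exon with a changed event is given in each library, and an exon with several events is represented by the one with most reads. Tested exons without a changed event are not all named. The members and the gene lists were chosen with earlier results of these data known. Events of a gene share reads and are not independent.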

Additional observations from a re-analysis of the deposited data

Results flagged for a closer look

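Both SRSF11 poison exons responded to emetine differently in the 2 lines by the quasi-binomial test of line by treatment. The difference, HMLE TWIST minus MCF10A, was -0.111 for the 109-nt exon and -0.147 for the 117-nt exon. The exons share the skipping reads, so they are not independent. In HMLE TWIST the emetine libraries lay apart, at 0.0416 and 0.0185 for the 109-nt exon and at 0.193 and 0.124 for the 117-nt exon, and neither limma (adjusted p = 0.26 and 0.50) nor the model with an event's own dispersion where larger (adjusted p = 0.057 and 0.45) called them. Without the second listed emetine library of HMLE TWIST the difference of the 109-nt exon was -0.0998, and without that line's second listed DMSO library the difference of the 117-nt exon was -0.125 and not called. Skipping reads in the 2 emetine libraries of HMLE TWIST also lay apart, at 7.88 and 6.14 RPM, and the part of this in the result was not tested.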

How the results depend on the processing

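With a change of at least 0.2, 6 SR protein events were called in MCF10A, beside 6.25% of all tested events, and 4 in HMLE TWIST, beside 6.83%. Over all tested events these calls were 1013 towards inclusion and 583 towards skipping in MCF10A, and 927 and 1142 in HMLE TWIST. The SR protein calls were all towards inclusion. Between lines, 0 SR protein events differed in response, beside 0.927% of all events. That last count was also 0 with limma and with an event's own dispersion, and 1 without HMLE TWIST DMSO replicate 2. Without length correction, 1 event differed between lines in DMSO. Leaving out each library in turn gave 12 to 13 calls in MCF10A, 6 to 9 in HMLE TWIST, 1 to 3 for the response between lines and 0 to 0 in DMSO. The lowest HMLE TWIST count came without emetine replicate 1. The deviations of first listed libraries did not go together (correlations of 0.0177 and 0.00667 across events), so the numbers share only a label. With a replicate block the counts were 12, 10, 2 and 0. No direction of a called event reversed under any alternative listed. Over all events, limma called 2012 in MCF10A and 3012 in HMLE TWIST beside 3533 and 4539, 0 beside 599 for the response between lines and 185 beside 1159 in DMSO. Skipping reads of a few per library in DMSO limit the level of SRSF1, and 2 libraries a group limit the spread.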

Other observations

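Junctions of constitutive coding exons show how the reads of the genes themselves moved, as values with no test, since these events had almost no skipping reads. The 185-nt exon of SRSF1 had inclusion reads of 24.5 and 23.1 RPM in MCF10A DMSO and 41.2 and 44.8 RPM in emetine. The 215-nt exon of SRSF4 had 29.4 and 30.6 in DMSO and 27.1 and 26.5 in emetine. The 99-nt exon of SRSF5 had 33.9 and 25.9 in DMSO and 20.1 and 22.2 in emetine. In HMLE TWIST, the 149-nt exon of SRSF6 had 4.83 and 4.05 in DMSO and 19.9 and 18.5 in emetine, and the 93-nt exon of SRSF11 had 13.4 and 10.6 in DMSO and 22.6 and 14.5 in emetine. SRSF5 was lower in emetine, SRSF4 differed little, and SRSF1 and SRSF6 were higher. These values are shares of summed junction reads, and gene expression was not measured.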
